A study of Mus musculus with 7 samples.

Results

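The muscle atrophy ligases and FoxO factors examined here are 9 genes, found by symbol among the 20927 genes of the count table. They are the RING ligase genes Trim63 (MuRF1), Trim54 (MuRF3) and Trim55 (MuRF2), the F-box protein genes Fbxo32 (atrogin-1), Fbxo30 and Fbxo40, and the transcription factor genes Foxo1, Foxo3 and Foxo4. Muscle removes contractile proteins through the ubiquitin-proteasome system, in which an E3 ligase chooses the protein that is tagged. MuRF1 and atrogin-1 are the ligases best known from wasting muscle, and their genes are driven by FoxO factors, which Akt keeps out of the nucleus while insulin-type signalling is active. The MuRF proteins also sit on the sarcomere, where MuRF1 binds titin near its kinase domain.

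RNA sequencing was done on left ventricles of 3 WT mice and 4 mice homozygous for A178D, a missense substitution in titin (Ttn), both labelled C57BL/6J and with 1 library from each heart. The A178D allele was made by CRISPR-Cas9 repair with a template in a clonally grown C57BL/6N embryonic stem cell line, with silent marker changes beside the substitution, and the mice were bred to C57BL/6J before WT and homozygous littermates were compared. The labels give neither age nor sex for these hearts, and no treatment is named. WT libraries are replicates 1, 3 and 4 and A178D libraries are replicates 1 to 4. The libraries held 51797208, 54245530 and 41102868 counts in WT and 40623300, 52345529, 42174448 and 33080675 counts in A178D. Levels are given as CPM, a gene's counts relative to the total of its library after TMM scaling, and the question was how each gene's level differed between the genotypes.

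The tissue label was checked against marker genes before the results. Cardiomyocyte markers summed to between 82610 and 89970 CPM in each library, led by Myh6, and 1 of the 7 was called higher in A178D (Mybpc3; edgeR). The 9 skeletal muscle markers together reached between 2.79 and 4.71 CPM, and the highest of them, Tnni2, stood between 1.14 and 2.13 CPM. Only 5 of them passed the filter on low counts, with 0 called by edgeR or DESeq2 and 0 at an unadjusted p under 0.05. Of the defining genes of fast fibres, Myh4 had 3 counts over all 7 libraries and Myh1 18. Ttn itself ranged from 6247 to 7245 CPM in WT and from 4087 to 6490 CPM in A178D, which overlap, and gene counts cannot show which allele a library carries. Acta1, a skeletal actin gene of the fetal heart, was 183, 72.0 and 69.3 CPM in WT and 811, 495.5, 706 and 672 CPM in A178D. It rose by 2.64 ± 0.29 (SE) on the log2 scale (edgeR, adjusted p = 0.000652), and the lowest A178D heart was above the highest WT heart.

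Of the 9 genes, 1 was lower in A178D and 0 were higher at an edgeR adjusted p under 0.05, namely Foxo3. Over the 13894 genes tested, 1.31% were called lower and 1.04% higher. At an unadjusted p under 0.05 the 9 genes gave 2, Foxo3 and Trim54, beside 16.7% of all genes. DESeq2 called both of these, Trim54 as higher, beside 5.06% in either direction of the 13153 genes with a DESeq2 adjusted p. The genotypes did not overlap for 1 of the 9 genes with A178D above WT (Trim54) and for 2 with A178D below WT (Foxo3 and Foxo4), beside 7.61% and 8.52% of all genes. The median log2 fold change of the 9 genes was -0.062, with 3 above 0 and 6 below, against 0.0023 over all genes. Over the 16 alternatives described below, the median of the 9 ran from -0.11 to -0.015, with 5 to 8 genes below 0. All 9 passed the filter of at least 10 counts in at least 3 libraries, with between 771 and 18274 counts in a library.

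**Figure D1:**
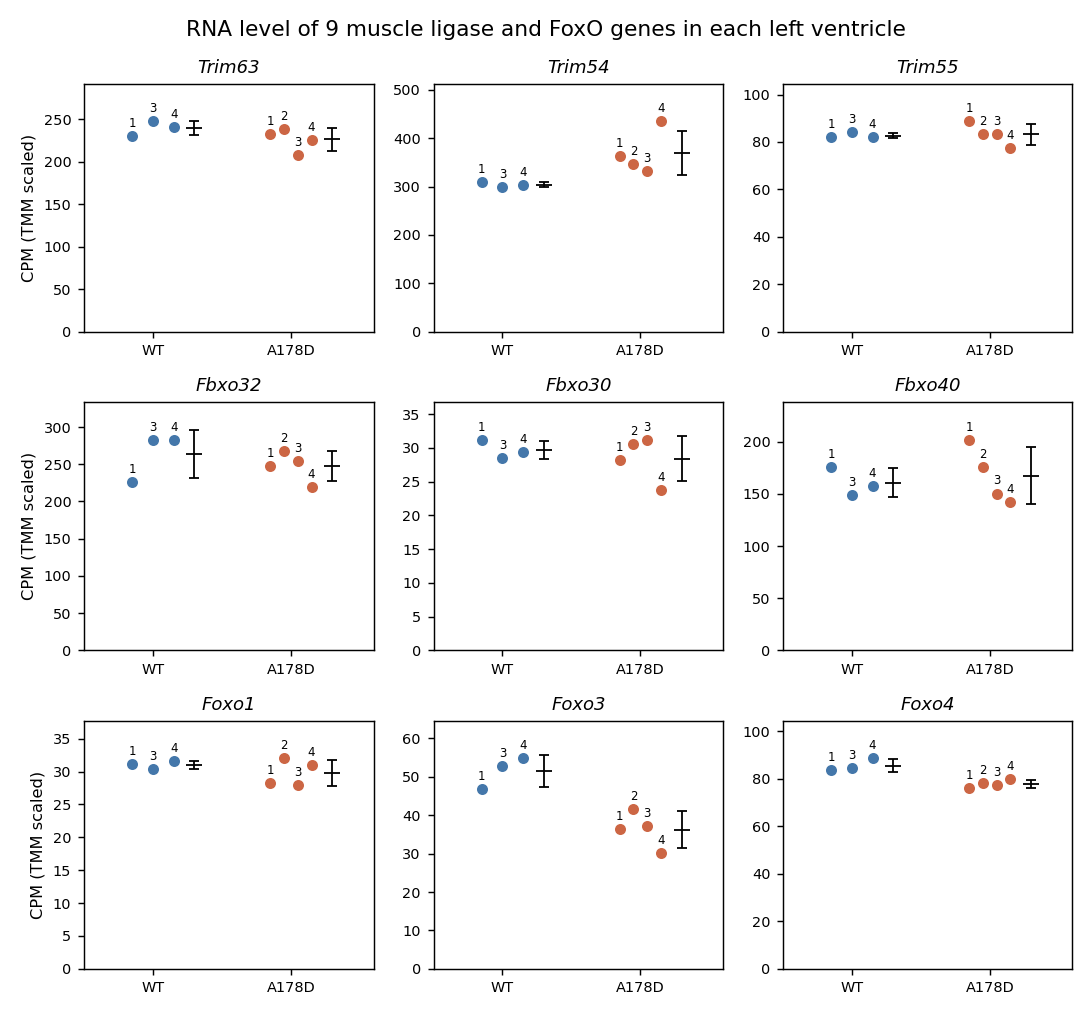
Each panel plots 1 gene, with CPM after TMM scaling on the vertical axis and 1 point per heart (WT in blue, n = 3; A178D in orange, n = 4), the replicate number above each point and the mean with its SD in black. Foxo3 and Foxo4 points of A178D lie below those of WT and Trim54 points of A178D lie above, while the genotypes overlap in the other 6 panels.

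Trim63 encodes MuRF1, the RING ligase that tags thick filament proteins in wasting muscle. Its gene lies on chromosome 4 (134315120 to 134329629, plus strand, GRCm38). It was at 231, 247 and 241 CPM in WT and at 233, 238, 208 and 225 CPM in A178D. Only A178D replicates 3 and 4 stood below the WT hearts, and the genotypes overlapped. The mean was 239.7 ± 8.35 CPM in WT (SD, n = 3) and 226 ± 13.1 CPM in A178D (SD, n = 4). A log2 fold change of -0.084 ± 0.069 (SE) did not pass the test (edgeR, adjusted p = 0.575). Its 95% interval runs from a change of -14.9% to one of 4.47%. The log2 fold change was -0.15 with length and GC offsets and -0.046 without A178D replicate 3, also not called (edgeR).

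Trim54 encodes MuRF3, a ligase that binds microtubules and the sarcomere, and it had the smallest p among the 6 ligase genes. The gene is on chromosome 5 (31116712 to 31137630, plus strand). It was read at 308.5, 299.7 and 304 CPM in WT and at 362, 347, 332 and 434 CPM in A178D. All A178D hearts were above all WT hearts, and A178D replicate 4 was the highest. The WT hearts were close together, with a mean of 304 ± 4.4 CPM (SD, n = 3), against 369 ± 45.4 CPM (SD, n = 4) in A178D. The log2 fold change was 0.28 ± 0.087 (SE), and it missed the threshold in edgeR (adjusted p = 0.1199) and passed it in DESeq2 (adjusted p = 0.0434). With offsets for transcript length and GC content the log2 fold change was 0.18 (edgeR, adjusted p = 0.0870), and without A178D replicate 4 it was 0.19 (edgeR, adjusted p = 0.118). In the 8 alternatives that kept all 7 libraries, other than DESeq2, its adjusted p, from edgeR or limma, was between 0.0870 and 0.137.

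Trim55 encodes MuRF2, the partner of Nbr1 and Sqstm1 in signalling from the titin kinase. Of the 9 genes it lay nearest to no difference. The gene, on chromosome 3 (19644474 to 19692421, plus strand), was at 82.2, 84.0 and 81.9 CPM in WT and at 88.6, 83.4, 83.2 and 77.5 CPM in A178D. The A178D hearts reached both above and below the WT hearts. The log2 fold change was 0.0081 ± 0.069 (SE; edgeR, adjusted p = 0.971), with a 95% interval from -9.20% to 11.4%.

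Fbxo32 encodes atrogin-1, the substrate receptor of an SCF ligase and the other classic gene of muscle wasting. It lies on chromosome 15 (58175879 to 58214932, minus strand). Its values were 226, 282 and 283 CPM in WT and 248, 268, 255 and 219.7 CPM in A178D. WT replicate 1 stood below the other WT hearts, next to the lowest A178D heart, and the genotypes overlapped. Fbxo32 had a log2 fold change of -0.091 ± 0.091 (SE; edgeR, adjusted p = 0.656), with a 95% interval from -18.0% to 7.45%. Without 1 library the log2 fold change ran from -0.19 to -0.038, and with length and GC offsets it was -0.015, never called (edgeR). The count table holds 2 entries with the same counts as Fbxo32 in every library, the gene itself and one that has no name in GENCODE release M21, so its counts are uncertain to that extent.

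Fbxo30 encodes MUSA1, an F-box protein tied to muscle mass and held down by BMP signalling, and Fbxo40 encodes a muscle-specific F-box protein that targets Irs1. Fbxo30, on chromosome 10 (11281330 to 11298052, plus strand), stood between 28.5 and 31.2 CPM in WT and between 23.8 and 31.2 CPM in A178D. A178D replicate 4 was its lowest heart. Fbxo40, on chromosome 16 (36963460 to 36990467, minus strand), stood between 149 and 176 CPM in WT and between 142 and 202 CPM in A178D, and A178D replicate 1 was its highest heart. The genotypes overlapped for both genes. The log2 fold changes were -0.062 ± 0.097 for Fbxo30 (SE; edgeR, adjusted p = 0.801) and 0.059 ± 0.11 for Fbxo40 (SE; edgeR, adjusted p = 0.833). Their 95% intervals run from -17.1% to 10.7% and from -11.3% to 22.5%.

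Foxo3 was the member that passed the test, and it was lower in A178D. Its product enters the nucleus when Akt activity falls and switches on autophagy and atrophy genes. The gene is on chromosome 10 (42181841 to 42276755, minus strand). It was at 46.8, 52.8 and 54.8 CPM in WT and at 36.4, 41.5, 37.1 and 30.1 CPM in A178D. Every A178D heart was below every WT heart, with WT replicate 1 the lowest of its group and A178D replicate 4 the lowest of all. The mean was 51.4 ± 4.17 CPM in WT (SD, n = 3) and 36.3 ± 4.72 CPM in A178D (SD, n = 4). Foxo3 fell by 0.50 ± 0.10 (SE) on the log2 scale (edgeR, adjusted p = 0.0205), a change of -29.3% with a 95% interval from -39.2% to -17.8%. By its p it ranked 152 of the 13894 genes.

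The Foxo3 call depended on which hearts were in the fit, and the size of the difference did so less. Leaving out WT replicate 3 gave an edgeR adjusted p of 0.115 and leaving out WT replicate 4 gave 0.110. It was 0.0672 when A178D replicate 1 was left out and 0.0527 when A178D replicate 3 was. The call was kept in the other 3 such fits, where the edgeR adjusted p was at most 0.0197. Over all 7 the log2 fold change ran from -0.57 to -0.42. Without WT replicate 3 the number of genes called overall also fell, from 145 to 22 higher and from 182 to 31 lower. The 9 alternatives that left out no library kept the call, at adjusted p between 0.000439 (DESeq2) and 0.0230 (edgeR with length and GC offsets).

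Foxo4, an X-linked FoxO gene (101254528 to 101260873, plus strand), was the most abundant of the 3 FoxO genes per kb. It was at 83.5, 84.3 and 88.5 CPM in WT and at 75.9, 78.3, 77.2 and 80.1 CPM in A178D. The genotypes did not overlap, with A178D replicate 4 the nearest to the WT hearts. Its log2 fold change was -0.13 ± 0.065 (SE) and did not pass the test (edgeR, adjusted p = 0.320). Its 95% interval runs from -17.2% to 0.364%.

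Foxo1, the FoxO factor that drives gluconeogenic and atrophy genes, is on chromosome 3 (52268336 to 52353221, plus strand). It was at 31.1, 30.4 and 31.6 CPM in WT and at 28.3, 32.0, 28.0 and 30.9 CPM in A178D. A178D replicates 1 and 3 were below the WT hearts and A178D replicate 2 above them. The log2 fold change was -0.058 ± 0.080 (SE; edgeR, adjusted p = 0.767), with a 95% interval from -14.8% to 8.22%. Whether the difference of Foxo3 is unlike that of Foxo1 or Foxo4 was not tested. In ventricle pieces with several cell types, fewer cells of a type and less RNA per cell cannot be told apart for any of these genes.

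**Figure D2:**
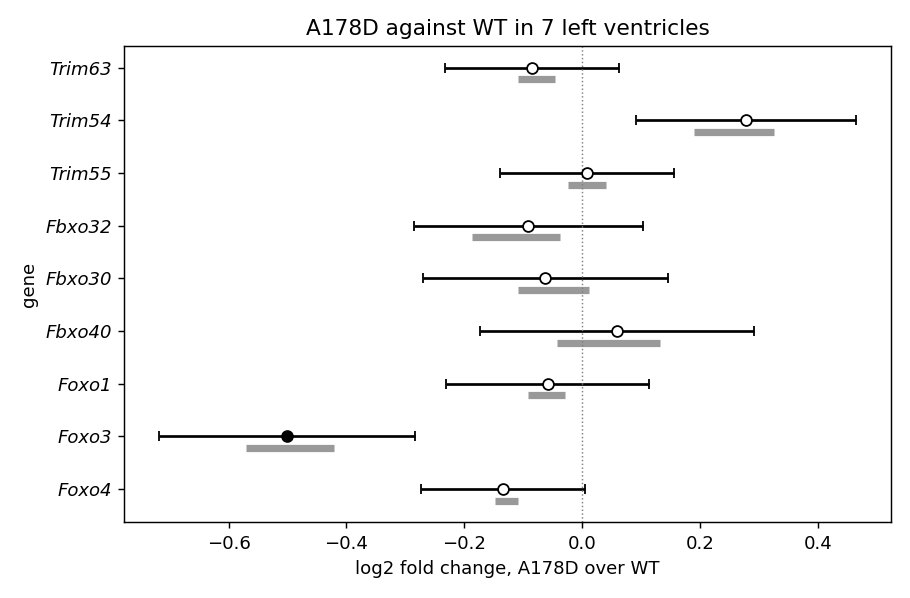
Points give the log2 fold change of A178D over WT for each gene (horizontal axis) from edgeR on 7 libraries, filled for an adjusted p under 0.05, with the 95% interval as a black line, and the grey bar below spans the 7 fits that leave out 1 library. Only the Foxo3 point, at -0.50, is filled, and its grey bar runs from -0.57 to -0.42.

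Annotated genes overlap 4 of the 9. Antisense genes cross Trim54 (Gm15469), Fbxo32 (Gm15943) and Foxo1 (Gm20402), and genes on the same strand lie within Trim55 (BC002189) and Foxo1 (Gm38034). The kit kept strand, but whether the counting used it is not given in the sources used here, so the counts of these 4 genes may hold reads of their neighbours. Foxo3, Foxo4, Trim63, Fbxo30 and Fbxo40 have no such neighbour in the annotation.

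Levels of different genes were compared per kilobase of summed exon length, with no test. Trim54 stood highest at 237.5 ± 32.9 CPM per kb (SD over 7 hearts), followed by Trim63 at 81.6 ± 4.48 CPM per kb. Fbxo32 (36.5 ± 3.60), Trim55 (31.2 ± 1.24) and Fbxo40 (29.8 ± 3.82 CPM per kb) came next, and neighbours in this trio overlapped over the hearts. Foxo4 followed at 23.3 ± 1.29 CPM per kb. Foxo3 (5.65 ± 1.20) and Fbxo30 (5.57 ± 0.50 CPM per kb) overlapped over all hearts, with mean Foxo3 above Fbxo30 in WT (6.79 and 5.71) and below it in A178D (4.79 and 5.47 CPM per kb), and Foxo1 was lowest at 3.50 ± 0.18 CPM per kb. With the length of the longest transcript in place of summed exons, Trim63 was at 123 CPM per kb and Foxo4 at 25.6 CPM per kb.

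Within their families the same scale gave these places. Trim54, Trim63 and Trim55 ranked 1, 3 and 4 of the 48 tested Trim genes, with Trim72, a ligase of the muscle membrane, at rank 2 (213 CPM per kb). Fbxo32 ranked 1, Fbxo40 3 and Fbxo30 26 of 58 F-box genes, and Fbxw5 was at rank 2 (34.2 CPM per kb). Foxo4, Foxo3 and Foxo1 ranked 1, 4 and 7 of 20 Fox genes. Trim72, Fbxw5 and the rule behind these families were chosen after values were seen.

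**Figure D3:**
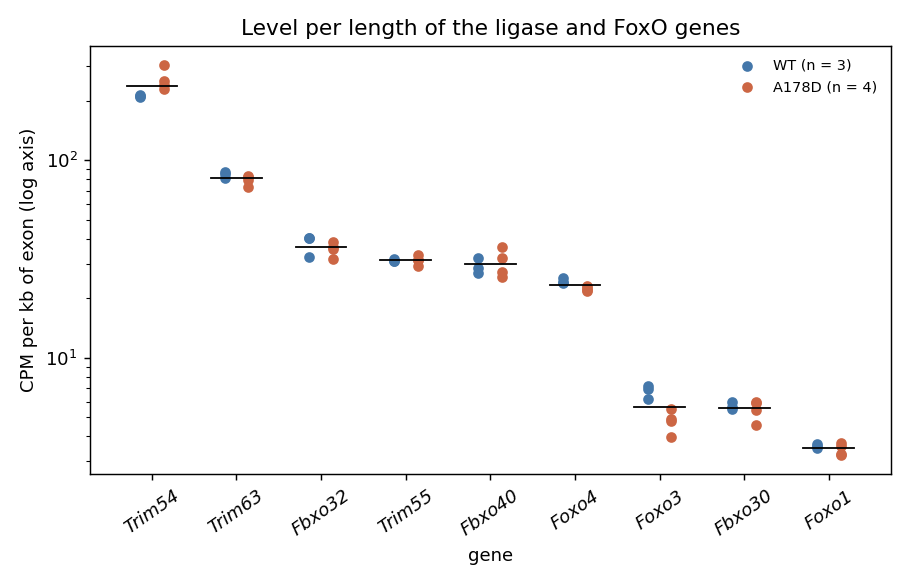
Level of each gene in CPM per kb of exon (log axis), with 1 point per heart for WT (blue, n = 3) and A178D (orange, n = 4) and a black line at the mean of all 7. The genes are ordered by that mean, from Trim54 at 237.5 to Foxo1 at 3.50 CPM per kb.

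Shares within a family were also taken per kb. Trim54 made up 65.7, 63.8 and 64.7% of the summed MuRF level per kb in WT and 68.6, 67.7, 68.9 and 73.6% in A178D. Every A178D heart was above every WT heart, with A178D replicate 4 the highest. The mean share was 64.7 ± 0.97% in WT (SD, n = 3) and 69.7 ± 2.65% in A178D (SD, n = 4), and with longest transcripts 57.15% and 62.7%. The summed MuRF level was 327 ± 0.26 CPM per kb in WT and 368 ± 31.8 CPM per kb in A178D.

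Foxo3 made up 18.3, 20.1 and 19.95% of the summed FoxO level per kb in WT and 16.1, 17.3, 16.2 and 13.0% in A178D, with no overlap. The summed FoxO level was 34.9 ± 1.28 CPM per kb in WT (SD, n = 3) and 30.6 ± 0.77 CPM per kb in A178D (SD, n = 4). The F-box sum overlapped between genotypes, from 70.4 to 74.7 CPM per kb in WT and from 61.8 to 77.5 CPM per kb in A178D. These shares were not tested.

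Of 28 genes that signal to FoxO, 1 was called lower and 0 higher (edgeR), with 9 at an unadjusted p under 0.05 and 5 called by DESeq2. Over all 13894 genes, for this list and those below, 1.31% were called lower, 1.04% higher and 16.7% had an unadjusted p under 0.05. DESeq2 called 5.06% of the 13153 genes with a DESeq2 adjusted p. The list's median log2 fold change was -0.099, with 24 genes below 0, against 6876 of 13894 genes below 0 in all. With length and GC offsets 17 of the 28 were below 0 and the median was -0.067. The called gene was Pik3r1, the regulatory subunit of the PI3-kinase that relays insulin signals to Akt. It was at 187.5, 205 and 233 CPM in WT and at 147, 151, 156 and 136 CPM in A178D, every A178D heart below every WT heart. Pik3r1 fell by 0.50 ± 0.081 (SE) on the log2 scale (edgeR, adjusted p = 0.00731), and the edgeR adjusted p stayed at or below 0.0499 in all 7 fits without 1 library.

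Among 26 target genes of FoxO factors 2 were called higher and 1 lower (edgeR), and 4 by DESeq2. The median was 0.00071, with 14 above 0. Cdkn1a, which encodes the cell cycle inhibitor p21, rose from 9.95 ± 0.89 CPM in WT (SD, n = 3) to 14.5 ± 0.38 CPM in A178D (SD, n = 4), a log2 fold change of 0.54 ± 0.10 (SE; edgeR, adjusted p = 0.0146). Gadd45a, a stress gene also linked to muscle wasting, rose by 0.48 ± 0.11 (SE) on the log2 scale (edgeR, adjusted p = 0.0434). Sesn1, which encodes a sestrin that restrains mTORC1, fell by 0.41 ± 0.094 (SE) on the log2 scale (edgeR, adjusted p = 0.0345). For these 3 genes no A178D heart overlapped a WT heart.

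Calls of these target genes were lost without some hearts. For Cdkn1a the edgeR adjusted p was 0.0951 with WT replicate 3 left out, 0.0746 with WT replicate 4 left out and 0.0555 with A178D replicate 1 left out. Gadd45a lost its call without WT replicates 3 (0.192) and 4 (0.169) and without A178D replicates 1 (0.128), 3 (0.107) and 4 (0.0564; all edgeR adjusted p), and with length and GC offsets (0.0964). Sesn1 lost it without WT replicates 3 (0.171) and 4 (0.169) and without A178D replicates 1 (0.0906), 2 (0.0893) and 3 (0.0977; all edgeR adjusted p).

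Of 18 other ligases of striated muscle, 1 was called lower and 0 higher by edgeR, 4 had an unadjusted p under 0.05, and DESeq2 called 2. Their median log2 fold change was -0.069, and over the 16 alternatives it ran from -0.11 to -0.023 (length and GC offsets). Asb15, a muscle gene of the ankyrin repeat and SOCS box family, was at 121, 116 and 123 CPM in WT and at 90.4, 102, 94.3 and 82.7 CPM in A178D. Asb15 fell by 0.38 ± 0.076 (SE) on the log2 scale (edgeR, adjusted p = 0.0208), with no overlap. Its edgeR adjusted p was 0.0872 with WT replicate 3 left out, 0.0980 with WT replicate 4 left out, 0.0797 with A178D replicate 1 left out and 0.0535 with A178D replicate 3 left out.

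The 10 SCF partners that F-box proteins work with gave 0 calls in edgeR, 0 in DESeq2 and 0 at an unadjusted p under 0.05. Their median log2 fold change was 0.081, and 8 of 10 were above 0. Over the 16 alternatives the median ran from 0.027 to 0.11, and with length and GC offsets it was 0.034. The smallest p values belonged to Rbx1, the RING subunit of the complex (log2 fold change 0.10 ± 0.07, SE), and Cops5, the protease subunit of the COP9 signalosome (0.10 ± 0.08). Without 1 library the log2 fold change ran from 0.067 to 0.12 for Rbx1 and from 0.055 to 0.15 for Cops5, never called (edgeR).

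The 7 genes of the titin kinase branch gave 0 calls in edgeR and in DESeq2, with 1 gene, Ttn, at an unadjusted p under 0.05. Ttn had a log2 fold change of -0.27 ± 0.12 (SE; edgeR, adjusted p = 0.287), and of -0.13 with length and GC offsets and -0.15 without A178D replicate 4. Sqstm1, which encodes the autophagy receptor p62, had 0.14 ± 0.07 (SE; edgeR, adjusted p = 0.351). Tcap, the gene of telethonin that caps the end of titin in the Z-disc, was at 2260, 2631 and 2521 CPM in WT and at 2424, 2677, 2661 and 3060 CPM in A178D, which overlap (edgeR, adjusted p = 0.460).

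Of 10 genes for substrates of MuRF1 and atrogin-1, 1 was called higher and 1 lower in edgeR, and 2 in DESeq2, with a median of 0.0074. At an unadjusted p under 0.05 there were 3. The log2 fold changes ran from -0.38 to 0.84, and the highest was not called (edgeR). Mybpc3, a thick filament protein, was at 5872, 5707 and 5239 CPM in WT and at 6952, 6832, 6677 and 7209 CPM in A178D. Mybpc3 rose by 0.30 ± 0.063 (SE) on the log2 scale (edgeR, adjusted p = 0.0230). Ppara, a nuclear receptor for fatty acid oxidation, fell by 0.38 ± 0.070 (SE) on the log2 scale (edgeR, adjusted p = 0.0144), from 145 ± 8.07 CPM in WT (SD, n = 3) to 112 ± 5.70 CPM in A178D (SD, n = 4). Neither gene overlapped between the genotypes. The Mybpc3 call was lost without WT replicates 3 (0.111) and 4 (0.1197) and A178D replicates 1 (0.0872) and 3 (0.0510), and that of Ppara without WT replicate 4 (0.0772) and A178D replicate 1 (0.0566; all edgeR adjusted p).

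**Figure D4:**
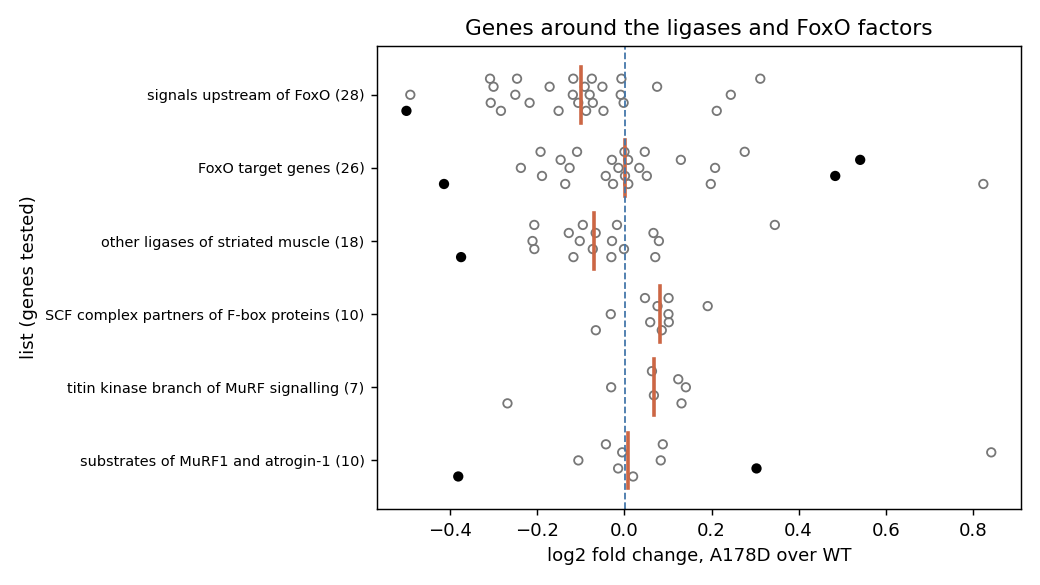
Each point is the log2 fold change of A178D over WT of 1 gene (horizontal axis, edgeR, 7 libraries) in 6 lists around the ligases and FoxO factors (rows, with the number of genes tested), filled for an adjusted p under 0.05, and points are spread vertically for view. Orange lines mark each list's median, from -0.099 for signals upstream of FoxO to 0.081 for the SCF partners, and the blue dashed line the median of all genes.

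Other signals moved with genotype in the same libraries. Smooth muscle cell and pericyte markers summed to 705, 703 and 658 CPM in WT and to 437, 508, 530 and 469 CPM in A178D, with 4 of 6 called lower (Acta2, Tagln, Myh11 and Cnn1; edgeR). All 6 were below 0, with 6 at an unadjusted p under 0.05 and 6 called by DESeq2. Their most abundant gene, Acta2, was at 177, 213 and 183 CPM in WT and at 108, 127, 134 and 137 CPM in A178D, and none of the 6 was at 0. Fibroblast markers summed to 1124, 1153 and 1044 CPM in WT and to 1357, 1283, 1229 and 1246 CPM in A178D. Of these 6 genes 1 was called higher (Col3a1; edgeR), with 4 at an unadjusted p under 0.05 and 2 called by DESeq2. The log2 fold change was above 0 for 5, but that of Dcn, the most abundant, was 0.0026 and that of Pdgfra was -0.060 (edgeR). The atrial marker sum, nearly all of it Nppa, was 251, 189.5 and 111 CPM in WT and 533, 367, 324 and 591 CPM in A178D. Nppa was the 1 gene called higher of the 2 tested in that list (edgeR), with 2 at an unadjusted p under 0.05 and 1 called by DESeq2. The atrial light chain gene Myl7 had 18 counts over all libraries. Endothelial, macrophage and erythrocyte markers gave 0 calls in edgeR, with 0, 2 and 0 at an unadjusted p under 0.05 and 0 in DESeq2. The marker genes named here, other than Mybpc3, were named after their values were seen. The calls of Acta2 and Tagln held in all 7 fits without 1 library, while Myh11 lost its call without WT replicates 3 (0.0501) and 4 (0.0548), Nppa without those (0.0861 and 0.0598) and without A178D replicate 1 (0.0555), and Col3a1 without WT replicate 3 (0.113) and A178D replicates 1 (0.0841), 2 (0.0672) and 3 (0.0712; all edgeR adjusted p). In these fits Cnn1 kept its call only without A178D replicate 4 and was otherwise at an edgeR adjusted p between 0.0591 and 0.109. What part cell composition had in the Foxo3 or Trim54 values was not tested.

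Some clock and glucocorticoid-responsive genes were called too. Of 9 clock genes of the Per phase 4 were called lower (edgeR): Per2 (log2 fold change -0.88), Per3 (-0.47), Hlf (-0.42) and Tef (-0.39). The other 5 were not called, and 2 of them were above 0, up to 0.51. The Per phase sum was 1155, 1160 and 1195 CPM in WT and 902, 1016, 1094 and 1060 CPM in A178D, with Tef the most abundant. Arntl, of the opposite phase, rose by 1.77 ± 0.31 (SE) on the log2 scale (edgeR, adjusted p = 0.0115), from 1.62 to 5.55 CPM. Without WT replicate 3 the edgeR adjusted p was 0.0525 for Per2, 0.0890 for Per3 and Tef, 0.116 for Hlf and 0.0823 for Arntl. Without WT replicate 4 it was 0.0937 for Per3, 0.0873 for Tef, 0.149 for Hlf and 0.0761 for Arntl, and without A178D replicate 1 it was 0.0555 for Per3, 0.0574 for Tef and 0.0907 for Hlf (edgeR). Of 10 glucocorticoid-responsive genes 1 was called higher (Cdkn1a) and 1 lower, Zbtb16, which fell by 1.22 ± 0.16 (SE) on the log2 scale (edgeR, adjusted p = 0.00224) and kept its call in all 7 fits without 1 library. At an unadjusted p under 0.05 there were 7 of these 10 genes and 6 of the 9 Per phase genes, beside 16.7% of all genes. The median log2 fold change of the 10 was -0.23, with 6 below 0. The sum of that list overlapped between genotypes, from 542 to 719 CPM in WT and from 483 to 635 CPM in A178D. Of 5 clock genes of the Bmal1 phase 1 was called higher (Arntl) and 1 lower (Cry1, edgeR). Cry1 was named after its values were seen, and its call was not followed through the alternatives. Of 4 Y-linked genes 0 were called by edgeR or DESeq2, with 0 at an unadjusted p under 0.05. The most abundant of them, Ddx3y, stood between 99.4 and 118.5 CPM in WT and between 75.2 and 118.8 CPM in A178D. All 7 libraries thus held Y-linked RNA, although the labels give no sex. Times of collection are not given in the labels, and the part of the clock or of glucocorticoids in the Foxo3 value was not tested.

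Genes with the profiles closest to Trim54 and Foxo3 were found by the root mean square difference of mean-centred log2 CPM over the 7 libraries, among 12302 genes. For Trim54 they included Mrps12 (0.029) and Commd5 (0.038). For Foxo3 they were Cep85l (0.049), Cd28 (0.050) and Usp54 (0.054). These were picked for following Foxo3 over the same hearts, so their direction comes with the choice and is no separate result. Cep85l, Cd28 and Usp54 were each called lower (edgeR adjusted p = 0.0383, 0.0476 and 0.0337), and Cep85l and Usp54 lost that call without WT replicate 3 (0.141 and 0.166), WT replicate 4 (0.161 and 0.163), A178D replicate 1 (0.105 and 0.0884) and A178D replicate 3 (0.0917 and 0.0636; all edgeR adjusted p). Cd28 lost it in all 7 fits without 1 library, with an edgeR adjusted p between 0.0509 and 0.184, and with all hearts in limma-voom (adjusted p = 0.0545). Mrps12 and Commd5 were not called.

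Promoter sequences of 6 of the 9 genes were in the RefSeq table (GRCm38.p6), each 250 bases before to 50 after a RefSeq start. Fbxo32, Trim55 and Foxo4 had no entry. They were searched on both strands for the FoxO site GTAAACA, the insulin response core CAAAACA and the glucocorticoid receptor hexamer AGAACA. On the other strand the FoxO site reads TGTTTAC and the hexamer reads TGTTCT. The FoxO site was in 1 of the 6 genes, Trim63, in 2.61% of the 13950 promoters of tested genes and in 3.65% of all 32851 promoters of that length. The insulin response core was in 0 of the 6, in 4.34% of those of tested genes and in 6.28% of all. The hexamer was in Trim63, Trim54 and 1 of the 2 Fbxo40 promoters, in 12.7% of those of tested genes and in 19% of all. A match describes letters in this window and no more.

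The promoters of Trim63, a textbook FoxO target, and of Trim54 and Foxo3, the genes with the smallest p, are shown 5′ to 3′ on the strand of the gene, with matches in capitals. In Trim63 the hexamer TGTTCT starts at -200 from the RefSeq start and runs directly into the FoxO site TGTTTAC at -194 without overlap, and in Trim54 the hexamer AGAACA starts at -222 from its RefSeq start, which is not the GENCODE gene start given above. Trim63 is at chr4:134314870-134315169 (plus), Trim54 at chr5:31116362-31116661 (plus) and Foxo3 at chr10:42276646-42276945 (minus).
Trim63: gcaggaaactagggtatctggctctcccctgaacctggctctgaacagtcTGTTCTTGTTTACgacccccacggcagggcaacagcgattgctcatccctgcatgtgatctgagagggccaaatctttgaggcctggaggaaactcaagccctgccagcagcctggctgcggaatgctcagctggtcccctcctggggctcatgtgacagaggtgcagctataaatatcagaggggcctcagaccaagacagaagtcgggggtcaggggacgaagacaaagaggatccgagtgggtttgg
Trim54: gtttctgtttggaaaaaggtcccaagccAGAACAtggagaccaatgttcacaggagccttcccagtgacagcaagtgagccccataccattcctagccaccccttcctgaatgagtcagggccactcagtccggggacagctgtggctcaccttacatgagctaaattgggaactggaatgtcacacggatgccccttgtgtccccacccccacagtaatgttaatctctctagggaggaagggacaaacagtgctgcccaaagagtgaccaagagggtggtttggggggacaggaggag
Foxo3: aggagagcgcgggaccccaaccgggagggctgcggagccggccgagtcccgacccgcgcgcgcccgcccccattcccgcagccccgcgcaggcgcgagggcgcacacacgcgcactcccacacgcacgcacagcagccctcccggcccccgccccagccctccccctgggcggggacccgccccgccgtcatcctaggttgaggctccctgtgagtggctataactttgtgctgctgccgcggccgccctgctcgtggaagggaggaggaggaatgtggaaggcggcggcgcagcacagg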

How the data were processed

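Poly(A) libraries (TruSeq Stranded mRNA) from powdered left ventricle were sequenced in pairs on an Illumina HiSeq instrument, per the labels. The values used are whole-number counts for each gene and library, as deposited by the authors. The submitters' processing notes name bcl2fastq 2.18.0.12, HISAT2 2.1.0, SAMtools 1.6, DESeq2 1.26.0 and GRCm38. The counting program and annotation are not given in the sources used here. A second deposited table, of normalised values, was not used here.

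Symbols, positions and lengths came from GENCODE release M21 by Ensembl identifier. Of 21257 entries, 442 fell into 219 sets with identical counts (30 or more over all libraries), and each set was kept once. Below 30 counts, 107 repeats of the same identifier and counts were also removed. This left 20927 entries under 20890 identifiers, each entry taken as a gene. Odd numbers made up 17.6 to 20.3% of counts between 1 and 20 in a library, for a reason that was not tested, and halved counts were among the alternatives.

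A178D was compared with WT in edgeR 4.0.16 (R 4.3.3; TMM, glmQLFit, glmQLFTest) over all genes that reached 10 counts in 3 libraries or more. P-values were two-sided and Benjamini-Hochberg adjusted over all 13894 genes, and calls used 0.05. The 95% intervals belong to single genes and are not adjusted. Standard errors hold counting error and the spread between hearts. With every count taken as independent, counting error alone was 3.60% at 771 counts, the lowest value of a member. It would be larger if both reads of a pair were counted, which was not tested. Alternatives were DESeq2 1.42.0, its size factors in edgeR, limma-voom (limma 3.58.1), other filters, the table as deposited, halved counts, length and GC offsets (mgcv 1.9.3), the replicate number as a block, and leaving out each library. Alternatives for shares within a family were chosen after seeing the data. The pipeline was tested on simulated data.

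The members and lists were chosen with earlier results of these data known. Named genes are the 9 members, up to 5 called genes in each direction from each list (the 2 with the smallest p where none was called), the 3 closest profiles with a mean of at least 1 CPM for the ligase and the FoxO gene with the smallest p, and library checks. Of the closest profiles, 1 is not reported here. Of the listed genes, Xist and Hbb-bt were not analysed here.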

Additional observations from a re-analysis of the deposited data

Results flagged for a closer look

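Among 40 genes examined for this, the 4 A178D hearts held 1 value far from the others of its group. Col3a1, a fibroblast collagen gene, was at 323.8 CPM in A178D replicate 2 and between 303 and 306 CPM in the other A178D hearts. The gap to the nearest of them was 0.864 of the group's range, and chance alone gives such a gap in about 1 in 20 groups, so over 40 genes this is no more than chance gives. None of the 9 ligase and FoxO genes held such a value, and the 3 WT hearts are too few for this check.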

How the results depend on the processing

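Foxo3 stayed below 0 in all 16 alternatives, and Trim54 stayed above 0 in all 16, with Trim54 past the threshold only in DESeq2 (log2 fold change 0.28, adjusted p = 0.0434, and so 1 ligase gene called higher). Over the fits without 1 library the Foxo3 log2 fold change ran from -0.57 to -0.42, and the number of the 9 genes called lower from 0 to 1. Trim63, Fbxo32 and Foxo4 kept their sign in all 16 and were never called. Genes close to 0 changed sign without being called: with length and GC offsets Trim55 (-0.024), Fbxo30 (0.0083) and Foxo1 (0.043), and without 1 library Trim55 (-0.0235 to 0.040), Fbxo30 (-0.11 to 0.0121) and Fbxo40 (-0.0420 to 0.13). Of all genes, 290 were called higher and 375 lower by DESeq2, 228 and 277 with length and GC offsets, and 22 to 215 higher and 31 to 238 lower without 1 library. Of the listed pathway genes, 3 higher and 4 lower became 6 and 7 in DESeq2, 5 higher with no filter on low counts, and 0 to 5 higher and 1 to 6 lower without 1 library. Fits without a library have fewer hearts, and for the other settings the cause was not tested. With the longest transcript as length, Trim63 was at 123 and Foxo4 at 25.65 CPM per kb, and the Trim54 share of the MuRF level was 57.15% in WT and 62.7% in A178D. Hearts of the same replicate number did not deviate together (correlations of 0.003, -0.040 and -0.042). No heart correlated best with the heart of its own number, so the numbers were not taken as pairs. With the replicate number as a block, 124 genes were called higher and 147 lower, and Foxo3 was at -0.58 and Trim54 at 0.30. Only A178D has a replicate 2, so that heart adds nothing to the genotype difference in the block fit. Among the named genes followed through the alternatives, Sesn1, Mybpc3, Cd28 and Cnn1 lost their call in that fit. Cry1 was not followed through them.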
